A study of Danio rerio with 3 samples.

Results

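The genes around the growth kinase complex mTORC1 described here were followed through single cells of adult zebrafish hearts: the translation repressors eif4ebp1, eif4ebp3 and eif4ebp3l, the stress sensors sesn1 and sesn3, and the lysosomal scaffold genes LAMTOR4 and lamtor5. They were taken by symbol, as the rows of these 7 of the 26320 genes in the deposited table. The symbols were chosen with earlier results of these data known. The inhibitory genes (3 4E-BPs and 2 sestrins) and the activating ones (2 Ragulator genes) are described gene by gene. Counts and medians over the 7 genes pool both roles. The clearest pattern was a division between the 4E-BP genes by cell class: eif4ebp3l and eif4ebp1 were higher in mural-like cells, and eif4ebp3 was higher in endothelial-like cells, before injury and 7 days after it. At day 7 the fold in the summed eif4ebp3l level exceeded counting error only when its richest cell was left out. The share of cells with eif4ebp3l was higher in mural-like cells beyond counting error with all cells kept. Differences between these classes were common in the whole table. At day 0, 15.4% of measured genes were past 2-fold higher in mural-like than in endothelial-like cells and 24% past 2-fold lower. Across days, the large differences in eif4ebp3l and lamtor5 at day 7 rested on 1 and 2 cells. With all cells, all 7 levels in endothelial-like cells were lower at day 3 than at day 0, beside 52.8% of all genes. At day 7, 5 were lower with all cells, beside 58.3%, and 6 without the richest cell of each gene. Without the 2 richest cells of each gene, a setting chosen after seeing the data, all 7 were lower on both days. Of these, 6 were lower beyond counting error on each day, and 61.4% and 71.0% of all genes were lower.

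The hearts came from adult fish of strain AB, about 5 to 12 months old. Hearts of the day 3 and day 7 groups were taken 3 and 7 days after injury by 5 mM metronidazole in 0.1% DMSO for 48 hours, and hearts of the day 0 group were taken before metronidazole. Metronidazole kills cells that carry bacterial nitroreductase, and the growth protocol lists, among other lines, fish in which the vmhc promoter drives this enzyme with mCherry in ventricular cardiomyocytes. Which line gave these libraries is not stated in the labels, and no vehicle-treated heart is among them, so effects of the drug and of the injury cannot be told apart. Each day has 1 library of 6 pooled hearts (3 male and 3 female, digested in 2 sets of 3), for which 2600 cells were loaded on a 10x Chromium chip. The labels state 272, 141 and 368 recovered cells for days 0, 3 and 7, and the deposited table holds 272, 114 and 368.

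mTORC1 raises protein synthesis and cell growth when nutrients and growth signals are present. 4E-BPs bind the cap-binding protein eIF4E and block translation initiation until mTORC1 phosphorylates them. Sestrins are induced by stress and restrain mTORC1 through GATOR2, while the Ragulator complex holds the Rag GTPases on the lysosome, where mTORC1 is switched on. These roles are known mainly from mammalian cells and flies, and the RNA of these genes does not measure mTORC1 activity.

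The 3 libraries held 857410, 493660 and 1355246 unique molecular identifiers (UMIs, counted RNA molecules) at days 0, 3 and 7, with medians of 2677, 3260.5 and 3124.5 per cell. The authors' 7 clusters at their resolution 0.4 were named here from marker genes, so the names are rebuilt and not the authors'. Clusters 0, 2, 3 and 6 were endothelial-like (503 cells), cluster 1 mural-like (149 cells, the pericytes and smooth muscle of vessels), cluster 4 fibroblast-like (54 cells) and cluster 5 cardiomyocyte-like (48 cells). No endothelial marker was among the 10 leading genes of clusters 0 and 3, which were named by their summed endothelial markers, 27722 and 17216 UMIs scaled to a library total of 1000000 (CPM). The name of cluster 6 is less sure. Its summed endothelial markers were 12519 CPM and its summed epicardial markers 10419 CPM. The epicardial sums of clusters 0, 2 and 3 were 4507, 3299 and 4205 CPM. Clusters 0 and 2 held most endothelial-like cells at day 0 (72 and 86 of 166), clusters 3 and 6 at day 3 (60 and 34 of 113) and cluster 0 at day 7 (193 of 224). Mural-like and cardiomyocyte-like cells were found at day 0 (88 and 18) and day 7 (61 and 30). The 114 cells of day 3 held neither, so that a share of up to 2.63% is allowed for each. Of the fibroblast-like cells, 53 were from day 7 and 1 was from day 3. With 1 library per day there is no replicate, so no test was made and no p-value is given. Every interval below is a 95% interval that treats UMIs as independent and covers counting error only. Clusters were built from the expression of these same cells, so differences between them are a description.

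Single cells held a large part of the UMIs of some of these genes, most of all of lamtor5 and sesn1. lamtor5 had 589 UMIs in all, of which 347 (58.9%) were in 1 endothelial-like cell of day 7 and 115 in a second one. In the richest cell, lamtor5 was the second most abundant gene and took 7.71% of the cell's 4499 UMIs. sesn1 had 236 UMIs, of which 119 (50.4%) were in 1 cardiomyocyte-like cell of day 0. eif4ebp3l had 944 UMIs, with 209 in an endothelial-like cell and 121 in a cardiomyocyte-like cell, both of day 7. eif4ebp3 had 957 UMIs, with 120 in an endothelial-like cell of day 7 and 86 in one of day 0. LAMTOR4 had 357 UMIs, with 66 in 1 cell of cluster 2 at day 0. The other 2 genes were less concentrated: no cell held more than 11 of the 831 eif4ebp1 UMIs or more than 3 of the 74 sesn3 UMIs. The richest cells of the 7 genes were 7 different cells. In 5 of the 7 genes the richest cell held over 10% of the UMIs, beside 32.5% of the 2718 genes with at least 50 UMIs. Of the 6 genes with 200 to 1000 UMIs, which leaves out sesn3, 5 were so concentrated, beside 56.2% of the 771 genes in that range. Levels are therefore given with and without the richest cells.

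Among the 4E-BP genes, eif4ebp1 had a level of 407, 245 and 266 CPM in the libraries of days 0, 3 and 7. Leaving out the richest cell of each library moved these values by little, to 397, 232 and 259.7 CPM. The day 0 interval (365 to 452 CPM) lay above those of day 3 (203 to 293) and day 7 (239.6 to 295), which overlapped each other. eif4ebp3 had 389.5 CPM at day 0, 245 CPM at day 3 and 370.4 CPM at day 7, and 290.0, 232 and 282 CPM without the richest cell of each library. eif4ebp3l had 402, 103 and 404 CPM at days 0, 3 and 7, and 349, 93.6 and 251 CPM without the richest cells. The day 3 library was lowest in all 3 genes. Without the richest cells, the eif4ebp3 interval of day 3 (191 to 279 CPM) overlapped those of day 0 (255 to 328) and day 7 (255 to 312). Day 3 is also the library in which no mural-like or cardiomyocyte-like cell was found. The part of those classes in these levels was not tested, and eif4ebp3 was lower in them than in endothelial-like cells, as given below.

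**Figure D1:**
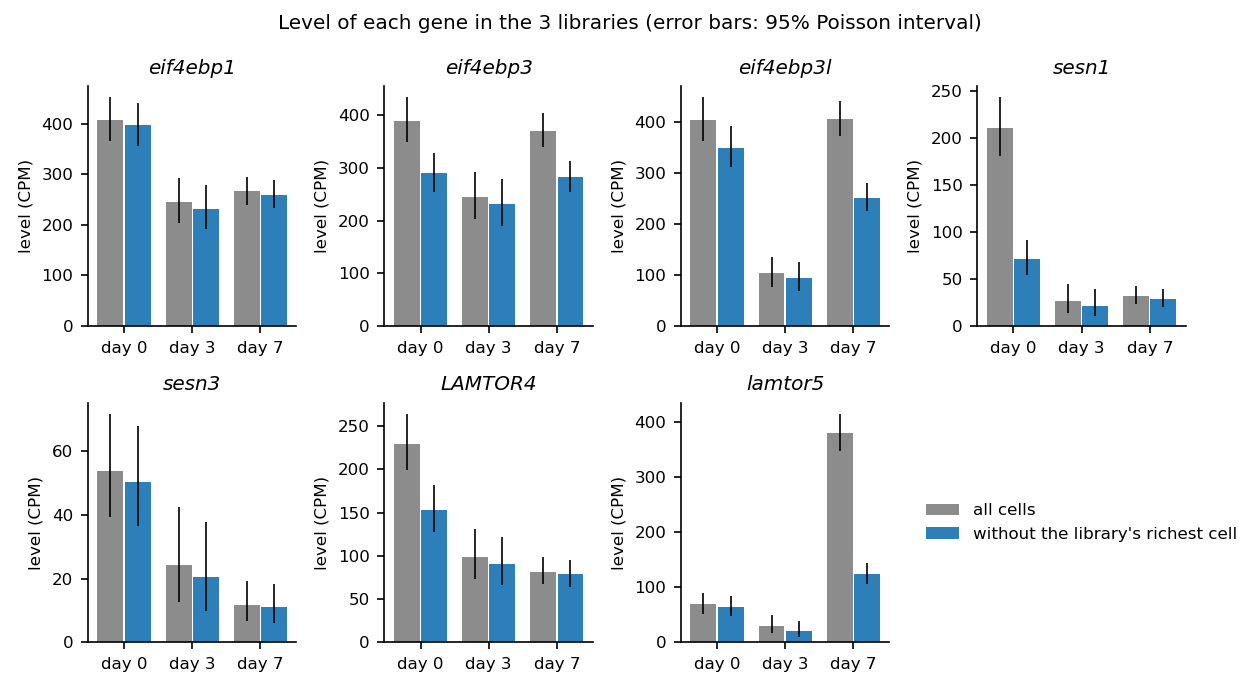
Level of each of the 7 genes in the library of day 0, 3 and 7, in CPM. Grey bars hold all cells, blue bars leave out the richest cell of that library, and error bars are 95% Poisson intervals of 1 library each. The day 7 bar of lamtor5 shrinks to 124 CPM from 380.0 CPM, and the day 0 bar of sesn1 to 71.3 CPM from 209.9 CPM, while eif4ebp1 and sesn3 hardly move.

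Between cell classes, eif4ebp3l was higher in mural-like than in endothelial-like cells. At day 0 its level was 858 CPM (258 UMIs) in mural-like cells and 135 CPM (69 UMIs) in endothelial-like cells, a 6.33-fold difference (4.84 to 8.38), and 5.00-fold without its 2 richest cells. At day 7 its level was 410.4 CPM in mural-like cells and 345 CPM in endothelial-like cells, 1.19-fold (0.924 to 1.52). Without the 1 endothelial-like cell with 209 UMIs, the day 7 difference was 4.36-fold (3.17 to 6.00), with 94.1 CPM left in endothelial-like cells. After thinning every cell to 2000 UMIs, eif4ebp3l was found in 55.7% of mural-like and 21.1% of endothelial-like cells at day 0, and in 37.7% and 15.6% at day 7 (unthinned 65.9% and 31.3%, and 45.9% and 22.8%). These shares give each cell the same weight, and in both libraries the interval of the mural-like share (44.7% to 66.3%, and 25.6% to 51.0%) lay above that of the endothelial-like share (15.1% to 28.1%, and 11.1% to 21.1%). In cardiomyocyte-like cells eif4ebp3l had 1448 CPM at day 7 and 380.5 CPM at day 0 (149 and 18 UMIs). A single day 7 cell held 121 of these UMIs, and without it the day 7 level was 279 CPM. No class here is known to lack these genes, so RNA found outside its own cells was read from the markers of each class. The summed mural markers in endothelial-like cells stood at 4.37% of their mural-like level at day 0 and 4.27% at day 7, at median depths of 2587 and 3046 UMIs per endothelial-like cell and 2950.5 and 2770 per mural-like cell. The mural marker nearest to eif4ebp3l in level was lmod1b at day 0, found in 61.4% of mural-like and 2.41% of endothelial-like cells after thinning, and myh11a at day 7, found in 49.2% and 1.34%. The eif4ebp3l shares of 21.1% and 15.6% in endothelial-like cells lay above these. These comparison genes were picked after values were seen. Cardiomyocyte markers were more widespread, at 13.1% and 7.89% of their own level in the endothelial-like cells of days 0 and 7. Single mural markers differed widely. After thinning, they were found in from 0% (rgs5a) to 21.7% (myl9b) of endothelial-like cells at day 0. At day 7 they were found in from 0% (abcc9) to 41.1% (myl9a). At day 0, myl9b and kcne4 were higher in endothelial-like than in mural-like cells (216 against 163 CPM, and 106 against 16.6 CPM). Their shares therefore cannot be read as RNA outside mural-like cells. The day 7 level of myl9a in mural-like cells, 3123 CPM, was far above the 410.4 CPM of eif4ebp3l. How much of the eif4ebp3l level in endothelial-like cells is background was not tested.

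eif4ebp1, the 4E-BP most studied as an mTORC1 target in mammals, was also higher in mural-like cells. Its difference was smaller than that of eif4ebp3l at day 0. At day 7 it was larger with all cells, and smaller once the richest eif4ebp3l cell was left out. At day 0 it stood at 525 CPM in mural-like cells and 314 CPM in endothelial-like cells, 1.67-fold (1.33 to 2.10), and at day 7 at 571 and 220.2 CPM, 2.59-fold (2.04 to 3.28). Without its 2 richest cells the folds were 1.73 and 2.45. Cardiomyocyte-like cells also had more eif4ebp1 than endothelial-like cells, 655 against 314 CPM at day 0 (2.09-fold, 1.37 to 3.08) and 369 against 220.2 CPM at day 7 (1.68-fold, 1.15 to 2.39). Fibroblast-like cells, seen at day 7, had the least, 90.8 CPM (19 UMIs in 53 cells). This was 0.413 times the endothelial-like level of day 7 (0.243 to 0.663) and 0.159 times the mural-like one (0.0926 to 0.259).

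eif4ebp3 ran the other way. Its level at day 0 was 73.1 CPM (22 UMIs) in mural-like cells and 599 CPM (305 UMIs) in endothelial-like cells, a ratio of 0.122 (0.0754 to 0.188). At day 7 the levels were 118 and 546 CPM, a ratio of 0.216 (0.138 to 0.323). The ratios were 0.175 and 0.308 without its 2 richest cells, with upper bounds of 0.273 and 0.463. It was found in 11.4% of mural-like and 42.2% of endothelial-like cells at day 0 and in 14.8% and 42.4% at day 7 after thinning (unthinned 14.8% and 51.2%, and 26.2% and 53.1%). The summed endothelial markers in mural-like cells stood at 4.70% of their endothelial-like level at day 0 and 4.71% at day 7. The endothelial marker nearest to eif4ebp3 in level was found in fewer mural-like cells, egfl7 in 3.41% at day 0 and cdh5 in 4.92% at day 7, against 41.6% and 34.4% of endothelial-like cells. Over the listed endothelial markers, the shares of mural-like cells ran from 0% (pecam1) to 69.3% at day 0 and 60.7% at day 7 (fabp11a). The level of fabp11a in endothelial-like cells was far higher, 21595 and 19481 CPM. How much of the eif4ebp3 level in mural-like cells is background was not tested. Cardiomyocyte-like cells were also lower in eif4ebp3 than endothelial-like cells, 148 against 599 CPM at day 0 (0.247 times, 0.0985 to 0.515) and 97.2 against 546 CPM at day 7 (0.178 times, 0.0847 to 0.330). The summed endothelial markers in cardiomyocyte-like cells stood at 32.9% and 31.6% of their endothelial-like level on these days. These values lay above the eif4ebp3 ratios and within their intervals. The markers nearest to eif4ebp3 in level stood below its ratios there, egfl7 at 8.34% at day 0 and cdh5 at 9.68% at day 7. How much of the eif4ebp3 level in cardiomyocyte-like cells is endothelial background was not tested. Fibroblast-like cells at day 7 had 62.1 CPM, 0.114 times the endothelial-like level (0.0601 to 0.197). The RefSeq gene table carries the symbol eif4ebp3 as an older synonym of eif4ebp3l; rows were taken by their deposited symbols, and how reads shared by paralogs were counted is not given in the sources used here. Both rows are in the table with different values.

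**Figure D2:**
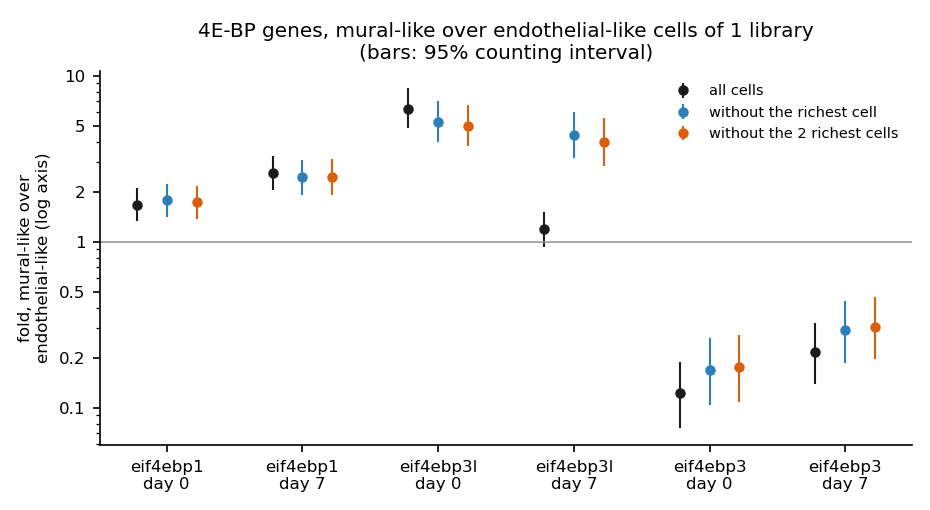
Fold of the 3 4E-BP genes, mural-like over endothelial-like cells of the same library, on a log axis, at day 0 and day 7. Black points hold all cells, blue and orange points leave out the 1 and 2 richest cells of the gene over both classes, and bars are 95% counting intervals. eif4ebp1 and eif4ebp3l lie above 1 and eif4ebp3 below 1, except that eif4ebp3l at day 7 is at 1.19 with an interval across 1 until its richest cell is left out.

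Over all 7 genes, 1 was past 2-fold higher and 3 past 2-fold lower in mural-like than in endothelial-like cells at day 0 (log2 of CPM + 10). Among the 2205 genes measured there, with at least 20 UMIs in both classes together, 15.4% were past 2-fold higher and 24.0% past 2-fold lower. At day 7, 1 of the 6 measured genes was past 2-fold higher and 2 were past 2-fold lower, beside 15.8% and 26.0% of 2425 genes. Without the richest cell of each gene the counts were 1 higher and 2 lower at day 0, beside 11.1% and 21.0%, and 2 higher and 2 lower at day 7, beside 12.5% and 20.3%. Differences of this size between the classes were thus common in the whole table. sesn3 was lower in mural-like cells at day 0, 19.9 CPM (6 UMIs) against 78.5 CPM (40 UMIs) in endothelial-like cells, 0.254 times (0.0880 to 0.603). At day 7 it had 3 and 8 UMIs, and a difference was not detectable at this depth.

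Within the endothelial-like class the 4E-BP genes differed between clusters. eif4ebp3 was among the 10 leading genes of cluster 0. At day 0 it had 279.5 CPM in cluster 2 and 1092 CPM in cluster 0, 0.256 times (0.195 to 0.333), and 0.424 times (0.316 to 0.566) without its richest cell. Of 1487 genes measured there, 13.2% were past 2-fold higher in cluster 2 and 7.46% past 2-fold lower. The 2 clusters that made up day 3 also differed: eif4ebp3 had 121 CPM in cluster 3 and 432 CPM in cluster 6, 0.280 times (0.171 to 0.444). There eif4ebp1 was on the other side, with 378 CPM in cluster 3 and 186 CPM in cluster 6, 2.03-fold (1.34 to 3.13). Cluster 3 was led by hsp90b1, a chaperone of the endoplasmic reticulum, and cluster 6 by aplnra, an apelin receptor gene. Without the richest cell of each gene, both differences kept their side, at 0.291 (0.176 to 0.467) for eif4ebp3 and 1.88 (1.23 to 2.93) for eif4ebp1. Differences of this size were common between these 2 clusters. Of 1258 genes, 23.4% were past 2-fold higher in cluster 3 and 18.4% past 2-fold lower, and 18.1% and 14.6% without the richest cell of each gene. Over all cells, the order of eif4ebp1 ran from cluster 1 (544 CPM) through clusters 5, 3, 2, 0 and 6 to cluster 4 (88.9 CPM), with each interval overlapping the next.

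**Figure D3:**
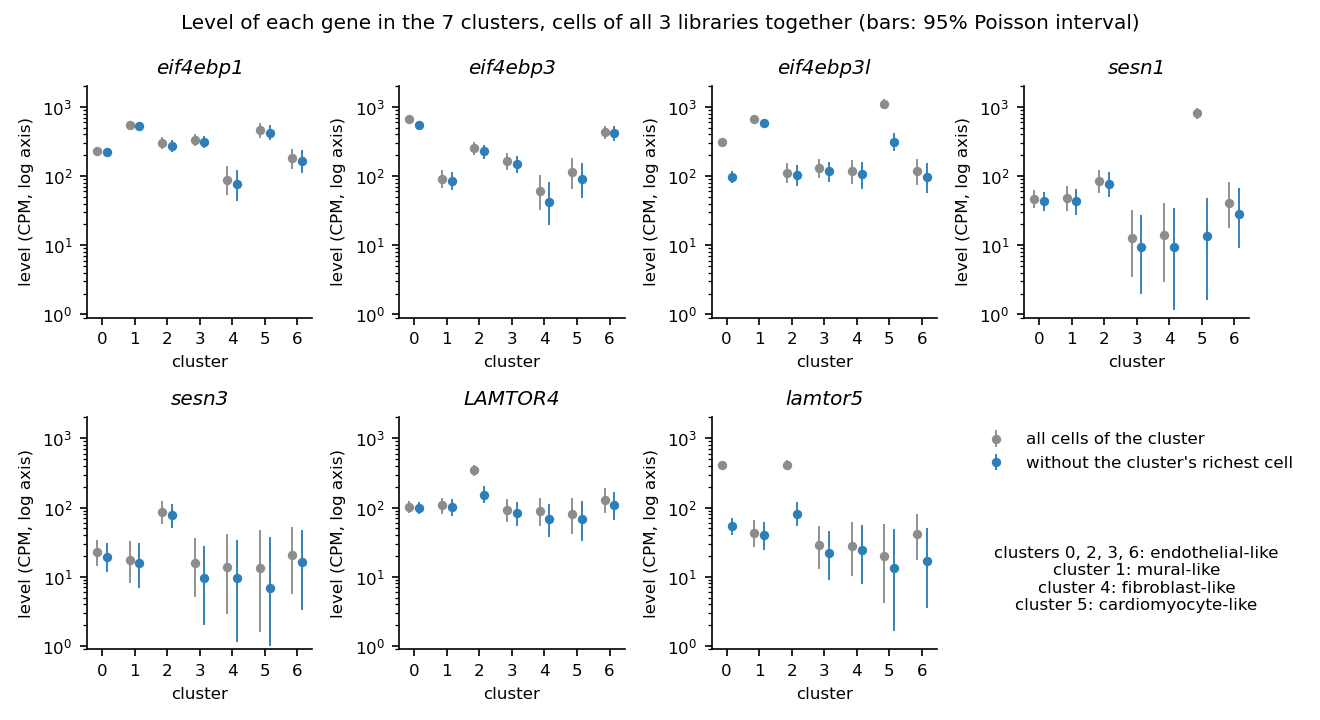
Level of each gene in the authors' 7 clusters, cells of the 3 libraries together, in CPM on a log axis. Grey points hold all cells, blue points leave out the cluster's richest cell, and bars are 95% Poisson intervals. The high grey points of sesn1 in cluster 5, lamtor5 in clusters 0 and 2, LAMTOR4 in cluster 2 and eif4ebp3l in clusters 0 and 5 come down when 1 cell is left out, while sesn3 stays highest in cluster 2.

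Across days within the endothelial-like class, eif4ebp3 was the 4E-BP gene that moved most at day 3. It had 247 CPM at day 3 and 599 CPM at day 0, 0.413 times (0.332 to 0.511), and 0.573 times (0.455 to 0.718) without the day 0 cell that held 86 of its UMIs. At day 7 it had 546 CPM, 0.912 times the day 0 level (0.787 to 1.06), and 0.933 times (0.784 to 1.11) without the 2 richest cells. Against day 3 the day 7 level was 2.21-fold higher (1.80 to 2.72), and 1.63-fold (1.32 to 2.02) without the richest cell. eif4ebp1 had 247 CPM at day 3, 0.787 times the day 0 level of 314 CPM (0.616 to 1.00). At day 7 it had 220.2 CPM, 0.701 times the day 0 level (0.564 to 0.872), and no cell of either day held more than 10 of its UMIs. eif4ebp3l had 104 CPM at day 3 and 135 CPM at day 0, 0.769 times (0.525 to 1.12). At day 7 its level of 345 CPM was 2.55 times that of day 0 (1.95 to 3.36), but without the cell with 209 UMIs it was 94.1 CPM, 0.695 times day 0 (0.496 to 0.975). In mural-like cells, eif4ebp3l was 0.479 times as high at day 7 as at day 0 (410.4 against 858 CPM, 0.371 to 0.612), and 0.606 times (0.465 to 0.784) without its 2 richest cells. eif4ebp1 in mural-like cells was 571 CPM at day 7 and 525 CPM at day 0, 1.09-fold (0.850 to 1.39). Of the 6 members measured in mural-like cells, eif4ebp3l was the 1 past 2-fold lower at day 7 and none was past 2-fold higher, beside 16.1% and 13.0% of 1475 genes. Leaving out the richest cell of each gene, 2 of the 6 were past 2-fold lower (sesn1 and LAMTOR4), beside 11.3%. For sesn1 this rests on a tie. Its richest cell held 3 UMIs on each day, and the day 7 cell was the one left out. With the day 0 cell left out instead, sesn1 had 33.0 CPM at day 7 and 50.6 CPM at day 0, not past 2-fold lower.

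Both sestrins were lower in endothelial-like cells after injury, with and without their richest cells. sesn3, a FoxO-induced sestrin in mammals, had 78.5 CPM at day 0 (40 UMIs), 24.5 CPM at day 3 (12 UMIs) and 9.63 CPM at day 7 (8 UMIs) in this class. Day 3 was 0.312 times day 0 (0.149 to 0.607) and day 7 was 0.123 times day 0 (0.0495 to 0.265). No cell held more than 3 of its UMIs, and without the 2 richest cells the ratios were 0.363 (0.171 to 0.719) and 0.143 (0.0570 to 0.314). After thinning it was found in 13.3%, 4.42% and 1.79% of endothelial-like cells at days 0, 3 and 7 (unthinned 16.9%, 9.73% and 3.57%), whose median depths were 2587, 3215 and 3046 UMIs. The interval at day 0 (8.50% to 19.4%) lay above that at day 7 (0.489% to 4.51%) and overlapped that at day 3 (1.45% to 10.0%). By cluster, sesn3 was highest in cluster 2 (85.3 CPM, 57.1 to 122), above the next highest, cluster 0 (22.5 CPM, 14.1 to 34.1). Cluster 2 held 86 of its 98 cells at day 0, so cluster and day are largely the same cells there. Within cluster 0 sesn3 had 10.1 CPM at day 7 and 66.6 CPM at day 0 (7 and 13 UMIs), 0.152 times (0.0514 to 0.410).

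sesn1, a p53-induced sestrin in mammals, had 84.4 CPM at day 0 (43 UMIs), 24.5 CPM at day 3 (12 UMIs) and 38.5 CPM at day 7 (32 UMIs) in endothelial-like cells. Day 3 was 0.291 times day 0 (0.139 to 0.561) and day 7 was 0.456 times day 0 (0.279 to 0.738). Without its 2 richest cells in this class, the ratios were 0.242 (0.103 to 0.507) and 0.428 (0.254 to 0.710). Its high level in cardiomyocyte-like cells of day 0, 2515 CPM, was 1 cell with 119 UMIs, and the other 17 cells of that group had none. Over the whole libraries it had 209.9, 26.3 and 31.7 CPM at days 0, 3 and 7, and 71.3, 21.1 and 28.8 CPM without the richest cell of each. The remaining sestrin, sesn2, had 1 UMI in the endothelial-like cells of day 0.

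Of the Ragulator genes, LAMTOR4 had 293 CPM at day 0 (149 UMIs), 100.2 CPM at day 3 (49 UMIs) and 87.8 CPM at day 7 (73 UMIs) in endothelial-like cells. Day 3 was 0.342 times day 0 (0.243 to 0.476) and day 7 was 0.3002 times day 0 (0.224 to 0.3998). Without the day 0 cell with 66 UMIs, the day 0 level was 164 CPM and the ratios were 0.611 (0.420 to 0.881) and 0.536 (0.386 to 0.743). In mural-like cells it had 70.8 CPM at day 7 and 133 CPM at day 0 (15 and 40 UMIs), 0.532 times (0.273 to 0.985). lamtor5 had 80.5 CPM at day 0 (41 UMIs), 30.7 CPM at day 3 (15 UMIs) and 604 CPM at day 7 (502 UMIs) in endothelial-like cells. Day 3 was 0.381 times day 0 (0.196 to 0.703). Day 7 was 7.50 times day 0 (5.45 to 10.6), 2.33 times (1.64 to 3.37) without the cell with 347 UMIs, and 0.607 times (0.383 to 0.963) when the cell with 115 UMIs was left out too. Outside those 2 cells, 40 UMIs were left at day 7, and no other cell of any library held more than 5. In mural-like cells lamtor5 had 6 UMIs at day 7 and 16 at day 0 (0.532 times, 0.171 to 1.43), a difference within counting error. The other Ragulator genes were sparse: in endothelial-like cells lamtor2 had 53.0, 36.8 and 32.5 CPM at days 0, 3 and 7 and lamtor3 had 10, 11 and 18 UMIs.

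**Figure D4:**
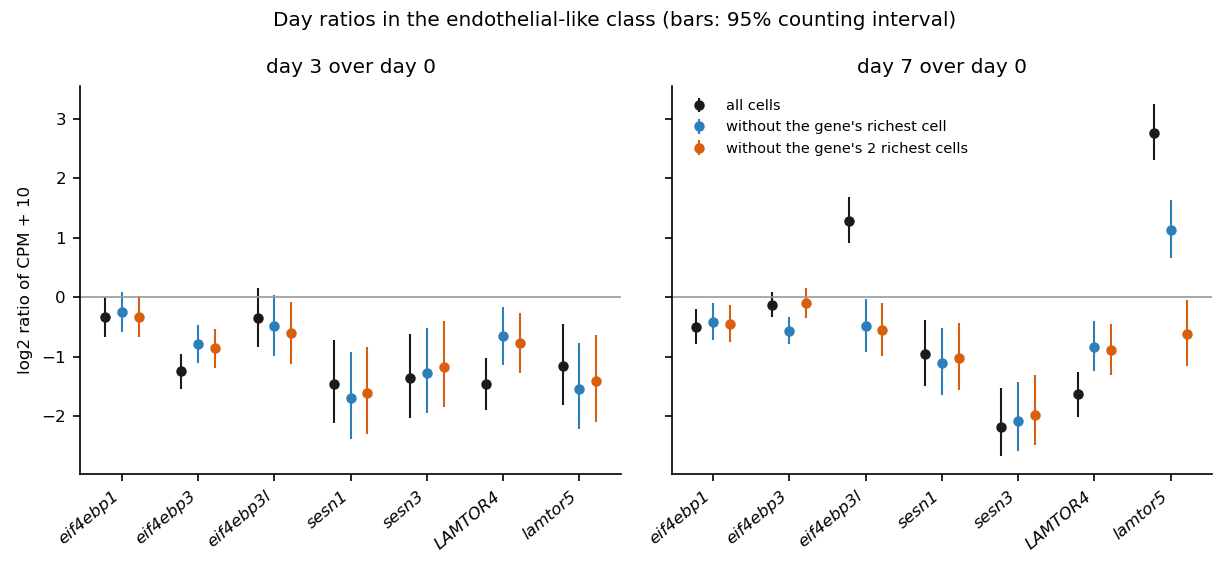
log2 ratio of CPM + 10 of the 7 genes in the endothelial-like class, day 3 over day 0 (left) and day 7 over day 0 (right). Black points hold all cells, blue and orange points leave out the 1 and 2 richest cells of the gene over both days, and bars are 95% counting intervals. At day 3 every point is below 0; at day 7 lamtor5 moves from 2.76 to -0.62 and eif4ebp3l from 1.29 to -0.55 as the richest cells are left out.

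Side by side in the endothelial-like class, all 7 genes were lower at day 3 than at day 0, by log2 ratios of -0.33 (eif4ebp1), -1.24 (eif4ebp3), -0.35 (eif4ebp3l), -1.45 (sesn1), -1.36 (sesn3), -1.46 (LAMTOR4) and -1.15 (lamtor5). Of the 2565 genes measured, 52.8% were lower, with a median of -0.04. Past 2-fold lower were 5 of the 7 (eif4ebp3, both sestrins and both Ragulator genes), beside 15.2% of all genes. None was past 2-fold higher, beside 13.6%. The counting interval of the fold excluded 1 for 5 of the 7. When the richest cell of each gene was left out, 3 of the 7 were past 2-fold lower (sesn1, sesn3 and lamtor5), beside 11.4% of all genes, whose median then was -0.15. When cells were thinned to 2000 UMIs before summing, the ratio of eif4ebp3l was 0.00 and the other 6 were lower.

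At day 7, 5 of the 7 were lower than at day 0 and 2 higher (eif4ebp3l and lamtor5), beside 58.3% of 3012 genes lower and a median of -0.13. Past 2-fold lower were 2 of the 7 (sesn3 and LAMTOR4), beside 11.8%, and past 2-fold higher 2 of the 7, beside 8.57%. Without the 2 richest cells of each gene, a setting chosen after seeing the data, all 7 were lower. Of these, 2 were past 2-fold (sesn1 and sesn3), and the intervals of 6 excluded 1. The whole table moved the same way with this step: 71.0% of the 3012 genes were then lower, 11.0% past 2-fold, and the median was -0.62 over the 7 genes and -0.29 over all genes. These richest cells were taken over both days together. With the richest cell of each day left out instead, the median over all genes was -0.14, near that with all cells. It was then -0.45 over the 7 genes, of which lamtor5 was higher. Day 3 and day 7 share the day 0 cells as their base, so the ratios of the 2 days are not independent. Median-of-ratios scaling moved the median of all genes at day 7 to 0.09, and with it the ratio of eif4ebp3 was 0.15.

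Other measures moved with these differences. The summed cardiomyocyte markers in endothelial-like cells, with 15 of 24 detected at days 0 and 3 and 17 at day 7, stood at 18551, 1629 and 10238 CPM at days 0, 3 and 7. myh6 and smyd1b were at 0 on all 3 days, vmhc and ryr2b at days 0 and 3, and 5 listed genes are not in the table. Cardiomyocyte-like cells themselves held 133529 CPM. With totals that leave out cardiomyocyte, globin and mitochondrial genes, the members' median log2 ratio was -1.30 at day 3 and -0.54 at day 7, against -1.24 and -0.49 with full totals. The summed endothelial markers in the same class stood at 33593, 16012 and 25833 CPM, and the cluster makeup changed as given above; their part in the result was not tested. Within cluster 0, which held 193 cells at day 7 and 72 at day 0, 5 of the 7 genes were lower and 2 higher at day 7, beside 46.6% of 2064 genes higher. Past 2-fold lower were 2, beside 11.4%, and past 2-fold higher 2, beside 12.3%. Leaving out the richest cell of each gene, all 7 were lower there, with 38.8% of all genes higher, and 3 were past 2-fold lower, beside 9.59%.

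Other genes of the pathway were read from lists by role, to which the 7 genes belong. In these lists the sestrins are among the inhibitors of mTORC1. The 4E-BP genes, called inhibitory above, are in the downstream list and not among the inhibitors. The list of promoters of mTORC1 activity held 42 symbols, with Rag, Ragulator, Rheb and amino acid sensing genes among them. In endothelial-like cells at day 3, 6 of these were measured: arf1, flcn, lamtor2, lamtor3, lamtor5 and LAMTOR4. Of these 6, 2 were higher and 4 lower than at day 0, with a median log2 ratio of -0.43. Of 31 inhibitors, 6 were measured and all 6 were lower, with a median of -0.69. All genes had a median of -0.04, with 47.2% higher. At day 7, 2 of the 4 measured promoters were higher, with a median of -0.24, and all 6 measured inhibitors were lower, with a median of -0.99, beside a median of -0.13 over all genes, of which 41.7% were higher. Without the richest cell of each gene, the 6 inhibitors were also all lower at both days. The promoters were then 1 higher and 5 lower at day 3 (median -0.38), and 1 higher and 3 lower at day 7 (median -0.40). The higher one at day 7 was lamtor5, which was lower without its 2 richest cells. Over all genes, 41.2% were then higher at day 3 (median -0.15) and 33.6% at day 7 (median -0.23). These are small counts: with every gene of at least 1 UMI taken in, 20 of the 31 listed inhibitors had a value. Of these, 55% were higher at day 3 and 25% at day 7, beside 52.0% of 11472 and 47.8% of 11998 genes at that minimum.

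The measured inhibitors were both sestrins and the same 4 other genes on each day, of which only fkbp1aa was lower beyond counting error at day 3. fkbp1aa encodes the FKBP12-type protein through which rapamycin binds mTOR. Rapamycin is not among the treatments named above, so fkbp1aa counts as an inhibitor here by list only. It had 730 CPM at day 3 and 1233 CPM at day 0 (357 and 628 UMIs), 0.592 times (0.518 to 0.675), and 1001 CPM at day 7, 0.812 times (0.731 to 0.902). akt1s1, the gene of PRAS40, an inhibitory mTORC1 subunit, had 65.4 CPM at day 3 and 88.4 CPM at day 0, 0.740 times (0.455 to 1.19), and 38.5 CPM at day 7, 0.436 times (0.268 to 0.701). ddit4, a stress-induced inhibitor acting through the TSC complex, had 45.0 CPM at day 3 and 58.9 CPM at day 0, 0.763 times (0.420 to 1.37), and 22.9 CPM at day 7, 0.388 times (0.206 to 0.712). ptena, a lipid phosphatase gene upstream of Akt, had 20.4 CPM at day 3 and 37.3 CPM at day 0, 0.548 times (0.228 to 1.24), and 25.3 CPM at day 7, 0.677 times (0.347 to 1.33).

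Of the 37 downstream genes, 13 were measured, of which 6 were higher and 7 lower at both days, with medians of -0.33 at day 3 and -0.13 at day 7. The share higher, 6 of 13, stood beside 47.2% of all genes at day 3 and 41.7% at day 7, with medians of -0.04 and -0.13. Without the richest cell of each gene, 5 were higher and 8 lower at both days, beside 41.2% and 33.6% of all genes higher. The medians were then -0.25 at day 3 and -0.46 at day 7, beside -0.15 and -0.23 over all genes. eef2b, a translation elongation factor gene, had 1253 CPM at day 3 and 461 CPM at day 0, a log2 ratio of 1.42 that was 0.68 without its richest cell, and 522 CPM at day 7, 1.13-fold (0.963 to 1.33). rps6, a ribosomal protein and readout of mTORC1 signalling through its phosphorylation, had 5648 CPM at day 3 and 4723 CPM at day 0 (1.20-fold), and 7569 CPM at day 7 (1.60-fold, 1.53 to 1.68). eef2k, the kinase that inhibits eEF2, had 16.4 CPM at day 3, 0.320 times (0.125 to 0.729) its day 0 level of 51.1 CPM, and 10.8 CPM at day 7, 0.212 times (0.0874 to 0.467). eif4ea, a gene of the cap-binding protein that 4E-BPs hold, had 3 UMIs at day 3, 7 at day 7 and 18 at day 0; its log2 ratios of -1.49 and -1.30 were -0.68 and -0.49 without its richest cell. eif4ebp2, the remaining 4E-BP gene, had 69.5 CPM at day 3, 72.2 CPM at day 7 and 155 CPM at day 0, and its log2 ratios of -1.05 and -1.01 were -0.50 and -0.46 without its richest cell.

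The 16 docking genes are part of the promoter list. Of these, 1 of 5 measured was higher at day 3 and 2 of 4 at day 7, with medians of -0.43 and -0.24. The 4 measured at day 7 were the same genes as the 4 measured promoters, with lamtor5 among the 2 higher. The lamtor5 difference there rested on 2 cells, as given above. Of the 21 genes of the v-ATPase, the proton pump that signals lysosomal amino acids to Ragulator, 2 of 8 measured were higher at day 3 (median -0.16) and 1 of 9 at day 7 (median -0.62). Over all genes, 47.2% were higher at day 3 (median -0.04) and 41.7% at day 7 (median -0.13). Without the richest cell of each gene, 3 of the 8 v-ATPase genes were higher at day 3 (median -0.30) and 2 of the 9 at day 7 (median -0.76). Of the docking genes, 0 of 5 (median -0.60) and 1 of 4 (median -0.40) were then higher. All genes then had medians of -0.15 and -0.23, with 41.2% and 33.6% higher. atp6v0ca, a membrane-ring subunit gene, had 51.1 CPM at day 3, 48.1 CPM at day 7 and 128 CPM at day 0, with folds of 0.4004 (0.242 to 0.644) and 0.377 (0.248 to 0.568). The lowest ratio, that of atp6v1h (-3.50 at day 3), was 0.61 without its richest cell. rraga, a Rag GTPase gene, was under the minimum of 20 UMIs and was picked out after its values were seen. It had 14 UMIs in 113 endothelial-like cells at day 3, 3 UMIs in 224 at day 7 and 1 UMI in 166 at day 0.

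**Figure D5:**
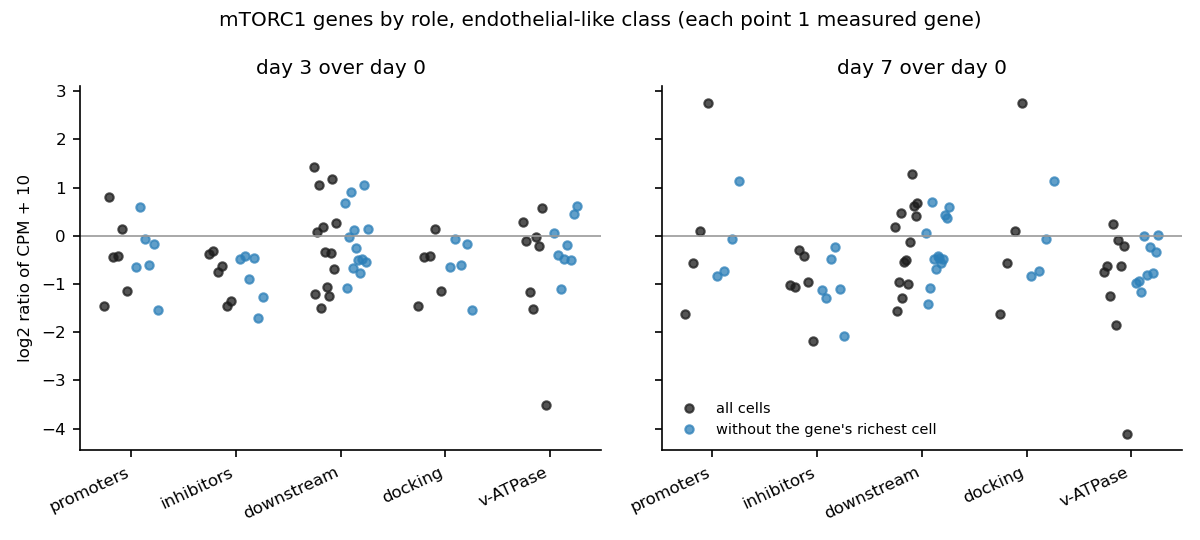
log2 ratio of CPM + 10 of each measured mTORC1 gene in the endothelial-like class, grouped by role, day 3 over day 0 (left) and day 7 over day 0 (right). Each point is 1 gene, black with all cells and blue without the gene's richest cell. The docking genes are also among the promoters. The 6 measured genes of the 31 in the inhibitor list, which leaves out the 4E-BP genes, lie below 0 on both days. The widest points, lamtor5 at 2.76 and atp6v1h at -3.50 and -4.10, come closer to 0 when 1 cell is left out.

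The pattern of each gene was compared with those of 1866 genes over the 10 cluster-by-day groups with at least 20 cells, after leaving out the richest cell of the gene in each group. The groups share libraries and differ in depth, so the coefficients are descriptions without a test. eif4ebp3 was most like lmo2, a transcriptional regulator of blood and endothelial cells (Pearson r = 0.936), then arl4ab and rassf1. eif4ebp3l was most like zgc:194981 (r = 0.890), then rbpms2a and zgc:172270. eif4ebp1 was most like mtpn, which encodes myotrophin (r = 0.854), then ppp2r5eb and txndc9. sesn1 was most like si:ch211-281l24.3 (r = 0.952), then eif5a and btf3, and sesn3 most like FBXO48 (2 of 2) (r = 0.896), then bhlhe40 and fgl2. LAMTOR4 was most like tpt1 (r = 0.924), then puf60a and si:dkey-42i9.4, and lamtor5 most like brk1 (r = 0.943), then fam120c and dgcr6. After that step 56 UMIs were left for sesn3, 89 for sesn1 and 95 for lamtor5.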

How the data were processed

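Hearts of adult zebrafish were profiled by 10x Chromium single-cell RNA sequencing, 1 library a day. Per the submitters' processing notes, Cell Ranger and build GRCz10 were used. The normalization tool is not given in the sources used here, and its scale was read from the values. The deposited table holds, per the file headers and its values, natural log expression values for 26320 genes in 754 cells (each cell scaled to 10000 and logged after adding 1), and the deposited cell annotation holds counts of UMIs and genes and cluster labels. UMI counts were recovered from the deposited values and each cell's deposited total: all 497895 values above 0 came out within 0.001 of a whole number, and the sums equalled the deposited totals in 754 of 754 cells. The lowest cell had 2004 UMIs, 1 barcode occurred in 2 libraries, and no doublet caller was run because the labels do not say how doublets were handled.

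Counts were summed per library, class or cluster and scaled to CPM, with exact Poisson intervals, exact conditional binomial intervals for folds and Clopper-Pearson intervals for shares of cells thinned to 2000 UMIs (95% each). Log2 ratios used a pseudocount of 10 CPM and genes with at least 20 UMIs in both groups together. For ratios, richest cells were taken over both groups together unless stated, and a tie went to the later day or the first-named class. Alternatives are listed in the closing section. Python 3.11.15, numpy 2.4.6, scipy 1.17.1, pandas 2.3.3 and matplotlib 3.10.9 were used. The fold calculation was checked on simulated gene totals with counting error only, so that check does not cover UMIs concentrated in single cells. Besides the 7 genes, the text names from each list by role up to 4 measured genes with the highest and up to 4 with the lowest ratio. The 7 genes and all lists were chosen with earlier results of these data known. Of the 7 symbols, 4 matched the gene name table and 7 the RefSeq gene table.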

Additional observations from a re-analysis of the deposited data

Results flagged for a closer look

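The day 7 over day 0 fold of eif4ebp3l ran in opposite directions between cell classes: 2.55 in endothelial-like cells and 3.81 in cardiomyocyte-like cells, against 0.479 in mural-like cells. The difference between the classes was not tested, since each day has 1 library. Without the richest cell of the gene, the endothelial-like fold was 0.695 (0.496 to 0.975) and the cardiomyocyte-like fold 0.734 (0.392 to 1.41), on the same side of 1 as the mural-like fold of 0.576 (0.443 to 0.743). Groups of 4 or more samples, which a check for a sample far from the others needs, do not occur here.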

How the results depend on the processing

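No paired analysis was possible because each day has 1 library. Of the 182 alternative values of the members' day ratios in endothelial-like cells, 154 stayed within the counting interval of the reported value. Another 24 moved outside it and 4 reversed, meaning that a reported ratio past 2-fold changed sign. The cause was not tested. Below 2-fold, 2 more changed sign: eif4ebp3 at day 7, from -0.13 to 0.15 with median-of-ratios scaling, and eif4ebp3l at day 3, from -0.35 to 0.0043 with thinned cells. Day 7 over day 0 (log2), eif4ebp3l reversed to -0.48 without the richest cell, -0.43 without the richest cell of each day and -0.55 without 2 (chosen after seeing the data), and lamtor5 to -0.62 without 2; lamtor5 was 1.13 and 1.25 under the first pair. LAMTOR4 moved to -0.83, -0.88 and -0.88 under these 3 settings at day 7 and to -0.66, -0.77 and -0.77 at day 3, and eif4ebp3 to -0.78, -0.86 and -0.86 at day 3. At day 7 eif4ebp3 was -0.56 without the richest cell. Over all cells of each library, the day 3 ratios were -0.71 (eif4ebp1), -0.65 (eif4ebp3), -1.86 (eif4ebp3l) and -2.60 (sesn1), and those of day 7 were 0.0069 (eif4ebp3l), -2.40 (sesn1) and 2.31 (lamtor5). eif4ebp3l at day 7 was 1.74 as a mean over cells and 1.84 with thinned cells. sesn3 at day 7 was -2.90 and -1.11 with pseudocounts of 1 and 50 CPM. Of 160 shares of listed genes that were higher, 9 moved. At day 3 the share was 0% for promoters with at least 50 UMIs, 55% for inhibitors with no minimum above 1 UMI, and 0% for docking genes without the richest cell, without 2 and with at least 50 UMIs. At day 7 it was 0% without the 2 richest cells for promoters, docking and v-ATPase genes, and 0% for v-ATPase genes with at least 50 UMIs. Counts are the limit for sesn3 and for the classes of under 100 cells, and no interval covers differences between animals.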
